A study of Mus musculus with 18 samples.

Results

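Neuron fractions from mice given clozapine were compared with neuron fractions from mice given risperidone. The comparison takes the 4 libraries labelled with these drugs in the Thy1 fraction, 2 for each drug, out of the 18 libraries of the study. Each drug has 1 library in batch 1 and 1 in batch 2, and the question was which genes differ in the same direction in both batches. The study asked how the antipsychotics act on microglia, astrocytes and neurons of the mouse frontal cortex, and this comparison sets its drugs against each other within one of these cell types.

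Clozapine and risperidone are second-generation antipsychotics. Both block serotonin and dopamine receptors, of which HTR2A and DRD2 are the best known. Clozapine also binds muscarinic, histamine and adrenergic receptors strongly, whereas risperidone binds adrenergic and histamine receptors and has little muscarinic affinity. In the frontal cortex most neurons are glutamatergic pyramidal cells, and the rest are mainly GABAergic interneurons.

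All mice, controls included, were of the B6;D2-Tg(S100B-EGFP)1Wjt/J line, which has an EGFP reporter transgene named for S100B. They received vehicle, 10 mg/kg clozapine or 1 mg/kg risperidone by daily intraperitoneal injection over 14 days, from postnatal day 60 to 74, and were killed on day 75. The labels describe the animals as adult males in one place and as both sexes in another. Each library comes from cortices of 5 animals pooled before the tissue was dissociated. Endothelial cells were depleted first, CD45+ cells were then captured, oligodendrocyte lineage cells were depleted, and Thy1+ neurons and HepaCAM+ astrocytes were isolated last. A library is therefore 1 pool, each group has n = 2, and the p-values measure the spread between pools. The vehicle neuron libraries entered the fit, which gave 2 residual degrees of freedom.

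Depth and purity differed between the neuron libraries. Assigned counts were 11.25 and 13.39 M in the clozapine libraries of batches 1 and 2, 6.52 and 12.26 M in the risperidone libraries, and 6.88 and 11.38 M with vehicle. Values for batch 1 are given before batch 2 throughout. The risperidone library of batch 1 had the fewest counts and the most genes with a count, 42548 against 34683 in the clozapine library of that batch. In batch 2 the numbers were 32851 and 32318. The 20 pan-neuronal markers summed to between 13100 and 21500 counts per M (CPM, scaled over all 18 libraries) in the 6 neuron libraries, above the highest values in microglia (10100) and astrocytes (8800). Markers of other cells were present too. The 20 myelin and oligodendrocyte markers summed to 7960 to 38800 CPM, the 20 astrocyte markers to 5430 to 11900 and the 20 microglial markers to 158 to 1800. No member of these lists was at 0 in any neuron library. In bulk fractions fewer cells of a type and less RNA per cell cannot be told apart.

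No gene passed the test between the drugs. Of 25510 genes tested with edgeR's quasi-likelihood test and batch as a block, 0 had an adjusted p under 0.05 (0%). At an unadjusted p under 0.05 there were 1905 genes (7.47%), of which 1880 (7.37%) differed in the same direction in both batches. These divided into 967 higher with clozapine (3.79%) and 938 lower (3.68%) before the batch condition. A small p in this fit favours genes that differ the same way in both batches, so that agreement is largely built into the selection. The same holds for such counts in the other fits. DESeq2 called 18 genes, all higher with clozapine. The number depended on the libraries in the fit. With the clozapine and risperidone libraries alone, 93 of 22031 genes were called (0.422%), 44 higher (0.2%) and 49 lower (0.222%), and 86 of them went the same way in both batches (0.39%). That fit has 1 residual degree of freedom, and its prior degrees of freedom were infinite, against 9.74 in the fit of 6 libraries. Its quasi-likelihood spread was thus taken from the trend over all genes, not from each gene. Genes whose batches disagreed were called too, such as Ccl3 (0.632 and −5.31). The values below are therefore descriptions of how the pools differed, with the unadjusted p of the fit across all genes where it is given. All differences are log2 clozapine minus risperidone, with their standard error (SE), and positive values mean higher with clozapine.

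The batches shared little across the transcriptome. The direction was the same in batch 1 and batch 2 for 50.8% of genes. Clozapine was the higher drug in both batches for 6318 genes (24.8%) and the lower drug in both for 6636 (26%). Among genes with a mean of at least 20 CPM the first share was 37.7%. Their median difference was 0.14 (0.3 and −0.02), so lists of abundant genes start from a higher share than 24.8%. A difference of at least 2-fold the same way in both batches was seen for 1287 genes, against 903 with such a difference in opposite directions. Most of the 1287 were low in level, and 1133 of them were lower with clozapine. Among the 7826 genes with a mean of at least 20 CPM, only 12 were at least 2-fold higher in both batches and 1 at least 2-fold lower. The 12 were Rny3, Rny1, Calb2, Wdr38, Usmg5, Pcp4l1, Uqcr10, Cox7a2l, the pseudogene Gm10036, the antisense gene Gm45552 and a pair of genes without a symbol in the annotation. The gene lower in both was Edn1. Edn1 passed the limit through the batch 2 vehicle library, at 204 CPM. It stood at 1.57 and 0.801 CPM with clozapine and 4.16 and 36.8 with risperidone. A gene of the unnamed pair passed through the batch 1 vehicle library, at 273 CPM. It read 19.3 and 18.5 CPM with clozapine and 5.7 and 7.4 with risperidone.

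**Figure D1:**
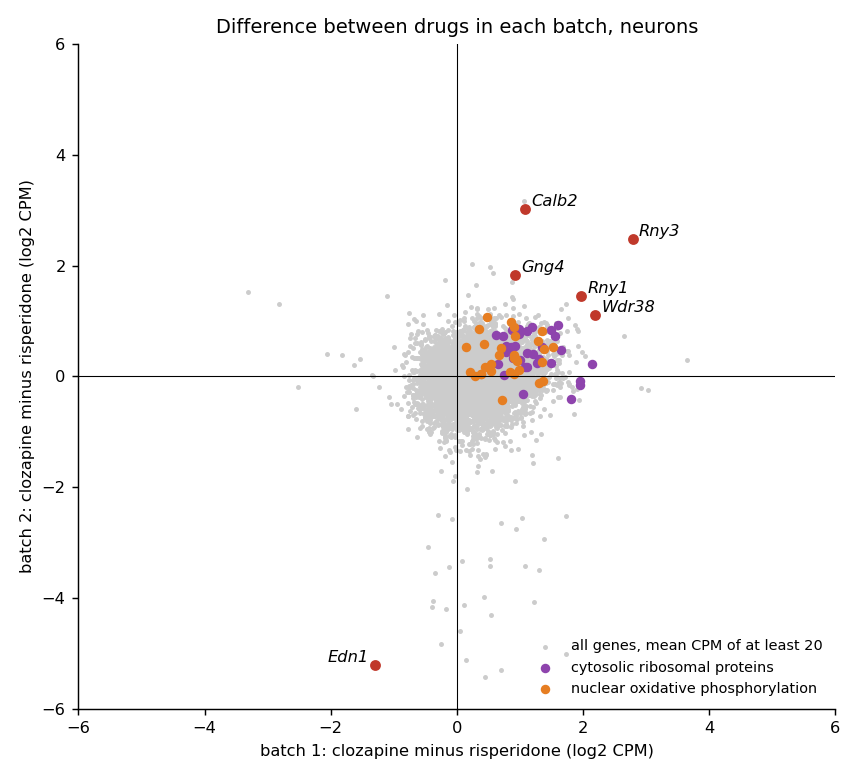
Difference between clozapine and risperidone neurons (log2 CPM) in batch 1 (x axis) and batch 2 (y axis) for the 7826 genes with a mean of at least 20 CPM; each point is a gene. Rny3, Rny1, Calb2, Wdr38 and Gng4 lie in the upper right, the ribosomal protein and oxidative phosphorylation genes lie mostly in the upper right quadrant, and Edn1 lies in the lower left.

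The gene with the smallest p was Rny3, which encodes a Y RNA. Y RNAs are short noncoding RNAs transcribed by RNA polymerase III. They bind the Ro60 protein and have roles in RNA quality control and DNA replication. Rny3 spans chr6:47758558-47758659 on the plus strand of GRCm39. Rny1, the second gene by p, spans chr6:47765003-47765114 on the minus strand, and 6343 bases lie between them. The annotation holds both as single-exon noncoding genes, of 102 and 112 bases, that overlap no other exon. Their sequences are shown because these had the smallest p of the named genes. Capitals mark every run of at least 8 bases found in both, 28 bases in each RNA. The sequences are those of GENCODE vM21 transcripts, 5′ to 3′.
Rny3: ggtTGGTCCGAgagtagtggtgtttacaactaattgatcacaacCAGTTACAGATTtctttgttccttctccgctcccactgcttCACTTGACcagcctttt
Rny1: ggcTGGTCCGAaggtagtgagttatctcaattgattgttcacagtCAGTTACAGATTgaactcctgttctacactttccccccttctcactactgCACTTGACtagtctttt

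Rny3 stood at 152 and 75.9 CPM with clozapine, 21.8 and 13.5 with risperidone, and 105 and 19.3 with vehicle. Both clozapine libraries lay above both risperidone libraries, and the vehicle libraries lay between those of the drugs in batch 1 and in batch 2. The counts behind these levels were 1545 and 947 with clozapine and 173 and 150 with risperidone, so counting error is small beside the difference. The spread between pools is not small, as the vehicle libraries alone read 105 and 19.3 CPM. Rny3 was higher with clozapine by 2.63 (SE 0.371, edgeR adjusted p 0.364), and by 2.79 and 2.48 within the batches.
Rny1 stood at 133 and 31.6 CPM with clozapine and 33.6 and 11.4 with risperidone, and at 64.2 and 9.41 with vehicle. The clozapine library was the higher one in each batch, but the clozapine library of batch 2 lay just below the risperidone library of batch 1. Rny1 was higher by 1.71 (SE 0.293, edgeR adjusted p 0.534), and by 1.97 and 1.45 within the batches.

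The same RNAs were read in the other fractions of the same pools. In microglia Rny3 was higher with clozapine by 3.63 in batch 1 and lower by −0.43 in batch 2. In astrocytes the differences were 3.03 and −0.75. The astrocyte clozapine library of batch 1 held the highest Rny3 level of all, 451 CPM on the scale of all 18 libraries. For Rny1 the differences were 1.61 and 0.09 in microglia and 1.62 and −0.18 in astrocytes. Rny3 was thus higher with clozapine in both batches in neurons but not in the other fractions, and Rny1 was so in neurons and microglia. The excess of Rny3 in neurons over the other fractions did not pass the test (neuron minus microglia 1.44, SE 1.12; neuron minus astrocyte 1.12, SE 1.09; edgeR adjusted p of 1 for each).

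**Figure D2:**
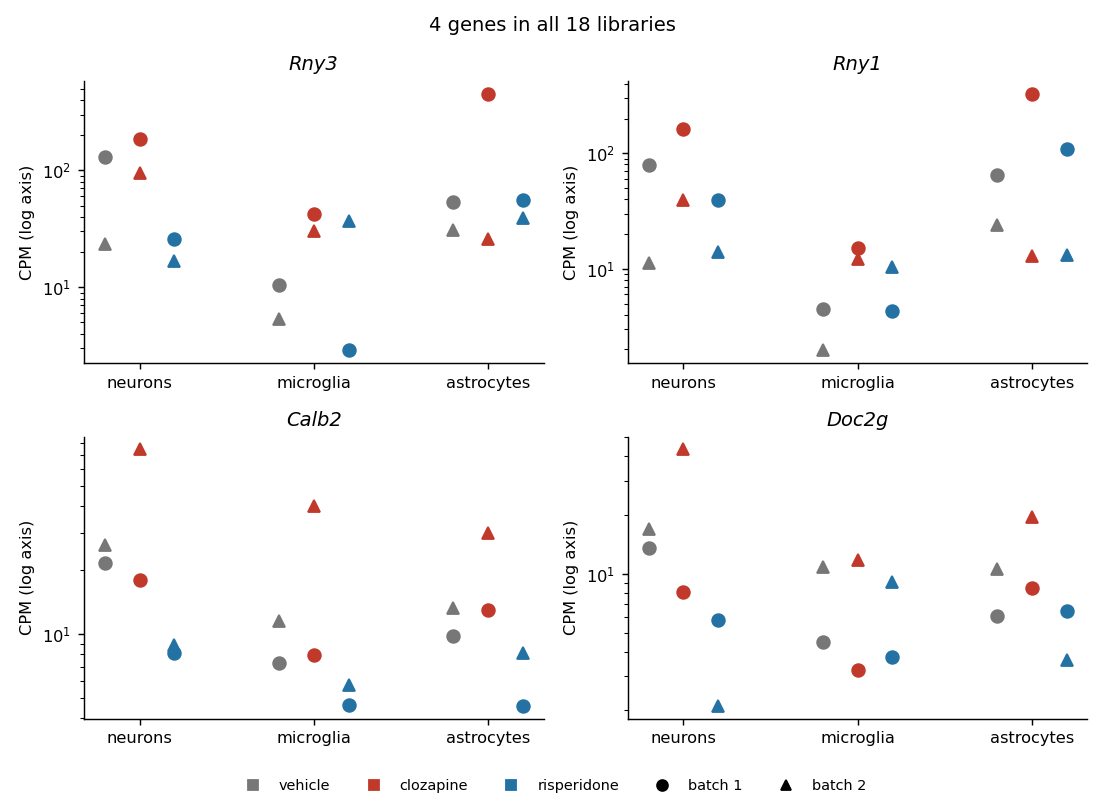
Levels (CPM on a log axis, scaled over all 18 libraries) of Rny3, Rny1, Calb2 and Doc2g in neurons, microglia and astrocytes; each point is 1 library, coloured by treatment and shaped by batch. In neurons the clozapine points of Rny3 lie above both risperidone points, and the batch 2 clozapine pool is the highest for Calb2 in all 3 fractions.

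Ribosomal protein genes were higher with clozapine as a group. These genes encode the protein parts of the cytosolic ribosome. All 33 on the list were tested and 0 were called. Of the 33, 29 were higher in both batches, against 24.8% of all genes tested, and 0 were lower in both. At an unadjusted p under 0.05 there were 26, all higher, where the share over all genes was 3.79%. In 27 both clozapine libraries lay above both risperidone libraries, against 13.7% of all genes. The median difference was 0.78, with 1.11 in batch 1 and 0.45 in batch 2, beside −0.01 over all genes tested (−0.04 and 0). Summed over the list, levels were 11600 and 8130 CPM with clozapine, 4890 and 6450 with risperidone, and 8080 and 6120 with vehicle. Against vehicle the list's median was 0.44 with clozapine and −0.38 with risperidone, and these comparisons share the vehicle libraries.
Rpl19, a protein of the large subunit, stood at 327 and 263 CPM with clozapine and 111 and 158 with risperidone. Neither group overlapped the other, and vehicle lay between them at 228 and 206. The difference was 1.13 (SE 0.276, unadjusted p 0.00153).
Rps27a, which encodes a ribosomal protein fused to ubiquitin, stood at 159 and 95.3 against 86.3 and 53.2 CPM, with differences of 0.88 and 0.84 in the batches.
The exceptions were Rpl18, Rpl27, Rplp1 and Rps23, which were higher with clozapine in batch 1 and slightly lower in batch 2, by −0.32, −0.08, −0.41 and −0.16.

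Among the genes named by smallest p, Rpl35 and Wdr38 cannot be separated. Rpl35, a large-subunit protein gene, lies at chr2:38891592-38895636 on the minus strand, inside the span of Wdr38 (chr2:38887488-38896180, plus strand). Exons of the pair overlap by 821 bases, and the counting used no strand. Rpl35 stood at 324 and 220 CPM with clozapine and 88.4 and 116 with risperidone, a difference of 1.38 (SE 0.284). Wdr38, a WD-repeat protein gene, stood at 171 and 110 against 37.2 and 51.0 CPM, a difference of 1.63 (SE 0.289). Reads from one may be counted for the other.

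Nuclear genes of oxidative phosphorylation were also higher. They encode subunits of the respiratory chain and of ATP synthase. All 33 were tested, 0 were called, 29 were higher in both batches (24.8% of all genes tested) and 0 lower in both. At an unadjusted p under 0.05 there were 16, all higher (3.79% of all genes), and in 19 the clozapine libraries lay above both risperidone libraries (13.7% of all genes). The median was 0.61 (0.86 and 0.32 within batches), and against vehicle it was 0.34 with clozapine and −0.18 with risperidone. Ndufb9, a complex I subunit, stood at 113 and 85.5 CPM with clozapine and 44.1 and 48.6 with risperidone, a difference of 1.06 (SE 0.286). Ndufa2, also of complex I, stood at 38.4 and 43.4 against 21.0 and 22.0 CPM. Cox7a2 and Cox5b, of cytochrome c oxidase, stood at 69.7 and 88.0 against 37.2 and 47.3 CPM, and at 227 and 227 against 92.9 and 147 CPM. In each of these 4 genes both clozapine libraries were above both risperidone libraries. The small proteins of this machinery that led the list of all genes were not list members. Usmg5, a subunit that holds ATP synthase dimers together, stood at 50.5 and 41.5 CPM with clozapine, 16.0 and 17.8 with risperidone and 37.8 and 31.4 with vehicle, a difference of 1.43 (SE 0.249). Uqcr10, a complex III subunit, stood at 51.7 and 56.1 against 21.7 and 26.6 CPM, with vehicle at 33.3 and 38.0, a difference of 1.17 (SE 0.233). Mitochondrially encoded genes had 0 counts in every library and could not be compared. Proteasome subunits gave a smaller median of 0.34, and 16 of 22 were higher in both batches (24.8% of all genes tested).

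Short genes as a whole leaned the same way, mostly in batch 1. Among genes with a mean of at least 20 CPM, the median difference was 0.53 and 0.09 in the shortest of 5 equal classes by exon length and 0.18 and −0.07 in the longest class. Spearman's rho between length and the difference across these genes, which are not independent, was −0.26 in batch 1 and −0.12 in batch 2. A limit of 2000 bases, chosen after values were seen, compares genes of like length. The 668 genes up to that length outside the lists had a median of 0.62 and 0.15 within the batches, and 53.9% were higher in both. The 18 ribosomal protein genes of that length had 1.42 and 0.51, and the 16 oxidative phosphorylation genes had 0.93 and 0.53. Longer members had 0.92 and 0.36 (14 ribosomal protein genes) and 0.55 and 0.10 (15 oxidative phosphorylation genes). Rny3 and Rny1, of 102 and 112 bases, fall in the shortest class. The part of gene length in the result was not tested. Myelin markers also differed between the batch 1 libraries, with summed levels of 31900 CPM for clozapine and 15000 for risperidone, and in batch 2 they stood at 6570 and 7530. Their part was not tested.

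**Figure D3:**
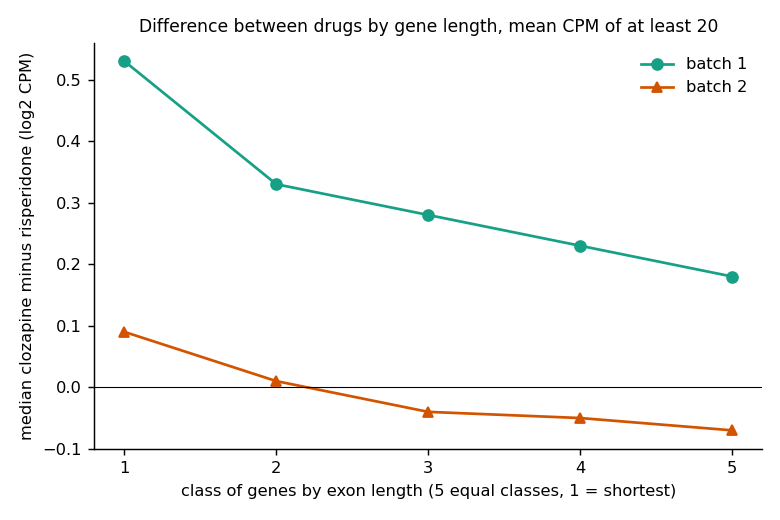
Median difference between clozapine and risperidone neurons (log2 CPM, y axis) in 5 equal classes of genes by exon length (x axis, 1 = shortest), for genes with a mean of at least 20 CPM, in each batch. The medians go down from 0.53 to 0.18 in batch 1 and from 0.09 to −0.07 in batch 2.

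The same lists were read in the other fractions. In microglia 25 of 33 ribosomal protein genes were higher with clozapine in both batches (medians 0.26 and 0.45), and in astrocytes 5 of 33 (medians −0.34 and 0.51). For oxidative phosphorylation the counts were 26 of 33 in microglia (0.34 and 0.96) and 13 of 33 in astrocytes (−0.10 and 0.72). A difference between fractions was not tested for the lists.

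A further set of genes belongs to interneurons and to the olfactory bulb. Calb2 encodes calretinin, a calcium-binding protein of a class of interneurons. It stood at 14.8 and 59.8 CPM with clozapine, 6.93 and 7.18 with risperidone and 17.4 and 21.9 with vehicle. Both clozapine libraries were above both risperidone libraries, but the batch 1 clozapine library was below both vehicle libraries, and the difference was 2.19 (SE 0.430), with 1.07 and 3.03 within batches. Sp8, a transcription factor of interneurons born in the caudal and lateral ganglionic eminences, was at 7.95 and 15.2 CPM with clozapine and 2.65 and 1.97 with risperidone, and vehicle read 4.36 and 3.91. It was higher by 2.30 (SE 0.468). Gng4, a G protein gamma subunit, stood at 45.8 and 130 against 24.2 and 36.3 CPM (1.40, SE 0.272). Pcp4l1, a calmodulin-binding protein related to PCP4, stood at 96.4 and 225 against 45.7 and 93.5 CPM, a difference of 1.17 (SE 0.231). The groups did not overlap for Gng4 or Pcp4l1, though for Pcp4l1 the batch 1 clozapine library lay just above the batch 2 risperidone library.

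Of the 20 GABAergic interneuron markers, 10 were higher in both batches and 2 lower in both, against 24.8% and 26% of all genes tested. At an unadjusted p under 0.05 there were 6, all higher (3.79% of all genes), and 0 were called. The list's median was 0.24 (0.46 and 0.16). Dlx1, a transcription factor of interneuron development, stood at 38.8 and 65.9 against 24.2 and 30.3 CPM. Gad1, the GABA-synthesising enzyme, stood at 98.2 and 366 CPM with clozapine and 67.5 and 186 with risperidone. For Gad1 the batches differed more than the drugs, and vehicle read 100 and 271. Summed over the list, levels were 910 and 1670 CPM with clozapine and 716 and 1530 with risperidone. The lean was not particular to interneuron markers. The 20 pan-neuronal markers also had a median of 0.24 (0.38 and 0.08). Of these, 11 were higher and 3 lower in both batches, and 4 had an unadjusted p under 0.05, all higher. The 20 glutamatergic markers had a median of 0.14 (0.40 and −0.04), with 7 higher in both batches and 1 lower. Neurod2, a transcription factor of pyramidal neurons, stood at 54.8 and 68.5 against 28.2 and 45.7 CPM. Nrgn, the postsynaptic calmodulin-binding protein neurogranin, stood at 1780 and 2750 against 939 and 1680 CPM.

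Because Calb2, Gng4 and Sp8 are also high in the olfactory bulb, which lies in front of the cortex, 14 genes known for that tissue were listed after the values were seen, and their counts are a description only. Of the 14, 10 were higher in both batches and 0 lower in both, against 24.8% and 26% of all genes tested. The median was 1.37, with 0.35 in batch 1 and 2.48 in batch 2. The summed level was 369 and 857 CPM with clozapine, 270 and 341 with risperidone and 380 and 524 with vehicle. By this sum the clozapine library of batch 2 was the highest, and that of batch 1 was close to the vehicle library of its batch. Against vehicle the list's median was 0.45 with clozapine and −0.68 with risperidone, and these comparisons share the vehicle libraries. Doc2g stood at 6.67 and 34.9 CPM with clozapine and 4.91 and 1.70 with risperidone. Cdhr1, a cadherin of mitral and tufted cells, stood at 10.1 and 30.1 against 8.32 and 4.31 CPM, with vehicle at 11.2 and 34.1. Eomes, a transcription factor of the same cells, stood at 2.85 and 11.5 against 3.65 and 0.179 CPM. In the other fractions of the batch 2 pools the list's median was 1.47 in microglia and 1.60 in astrocytes, and Calb2 read 40.4 and 29.9 CPM there with clozapine against 5.73 and 8.13 with risperidone (scale of all 18 libraries). The part of the dissected region in the result was not tested.

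**Figure D4:**
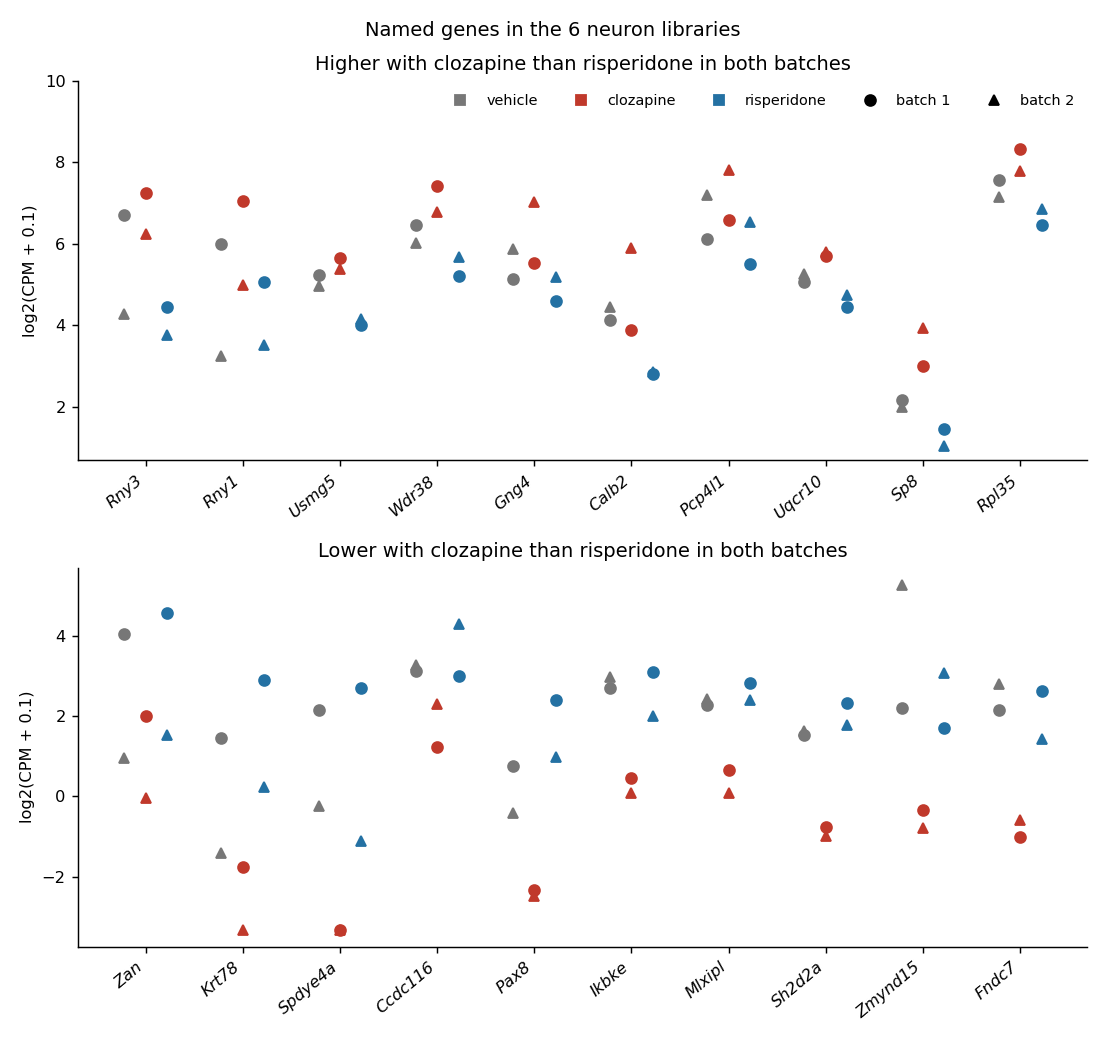
Levels of the 10 genes per direction with the smallest p that differed the same way in both batches, without unnamed, predicted and pseudogenes, as log2(CPM + 0.1), in the 6 neuron libraries; each point is 1 library, coloured by treatment and shaped by batch. The upper genes have clozapine above risperidone in each batch, and most of the lower genes have clozapine below vehicle as well as below risperidone.

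The genes named as lower with clozapine had low levels, at most 38.8 CPM in any neuron library. The 10 with the smallest p were Zan, Krt78, Spdye4a, Ccdc116, Pax8, Ikbke, Mlxipl, Sh2d2a, Zmynd15 and Fndc7, each with an edgeR adjusted p of 0.534. Mlxipl encodes ChREBP, a glucose-responsive transcription factor of lipid synthesis. It stood at 1.47 and 0.961 CPM with clozapine, 7.06 and 5.20 with risperidone and 4.76 and 5.31 with vehicle, so the clozapine libraries lay below the other 4. The difference was −2.33 (SE 0.509), and −2.12 and −2.22 within batches. Ikbke, a kinase of innate immune signalling, stood at 1.28 and 0.961 CPM against 8.44 and 3.95 with risperidone and 6.48 and 7.73 with vehicle (−2.41, SE 0.520). Sh2d2a, an adaptor of T cell signalling, stood at 0.491 and 0.401 against 4.91 and 3.32 CPM. Zmynd15, a transcriptional repressor known from germ cells, stood at 0.687 and 0.481 against 3.15 and 8.34 CPM, with vehicle at 4.49 and 38.8. Fndc7, a fibronectin type III domain gene, stood at 0.392 and 0.561 against 6.05 and 2.60 CPM. In all 5 genes both clozapine libraries were below both risperidone and both vehicle libraries. Ccdc116, a coiled-coil gene, stood at 2.26 and 4.89 against 7.94 and 19.5 CPM. Exons of Zmynd15 overlap Cxcl16 by 552 bases, those of Ccdc116 overlap Ydjc by 299 and those of Ikbke and Mlxipl overlap predicted antisense genes, so these counts are uncertain.

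The remaining lower genes differed more in batch 1 than in batch 2. Zan, a sperm zona-binding protein gene, stood at 3.92 and 0.881 CPM with clozapine and 23.8 and 2.78 with risperidone, with vehicle at 16.4 and 1.86. Its groups overlapped, and the batches differed more than the drugs. Spdye4a, of the Speedy family of cell-cycle regulators, had 0 counts in both clozapine libraries and 55 over the risperidone libraries, at 6.43 and 0.359 CPM. Against a floor of 3 counts over the clozapine group, its level pooled over the batches was at least 21.8-fold higher with risperidone. That bound rests on the risperidone library of batch 1, and batch 2 alone does not give it. Krt78, a keratin gene, stood at 0.196 and 0 CPM with clozapine and 7.433 and 1.076 with risperidone. It had 2 counts with clozapine and 71 with risperidone, a ratio of 42.2 (exact 95% counting interval 11.3 to 355). Pax8, a developmental transcription factor, stood at 0.098 and 0.08 against 5.165 and 1.884 CPM. It had 2 against 62 counts, a ratio of 36.8 (9.77 to 311). Its exons overlap the antisense gene Gm13415 by 367 bases, so its counts are uncertain too. These ratios pool the batches, and their intervals cover counting error only.

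Low-level genes leaned this way as a class. The 4089 genes with a mean under 1 CPM had a median difference of −0.94, with −1.27 in batch 1 and 0 in batch 2, and those from 1 to 5 CPM had −0.25 (−0.49 and 0.01). This moved with the number of genes detected, which in batch 1 was higher in the risperidone library than in the clozapine library. Its part in the result was not tested.

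No gene for a receptor that the drugs bind passed the test. Of 5 dopamine receptor genes 3 passed the filter on low counts, and Drd3 and Drd4 did not. Drd1 stood at 9.52 and 13.7 CPM with clozapine, 10.3 and 26.9 with risperidone and 13.6 and 31.1 with vehicle. Its difference was −0.56 (SE 0.303, unadjusted p 0.0922). Drd2, the receptor of main clinical interest, stood at 9.12 and 5.93 CPM with clozapine and 5.80 and 17.9 with risperidone. Its direction differed between batches (0.64 and −1.57), and the fitted difference was −0.47 (SE 0.476).
Of 14 serotonin receptor genes 13 were tested, and 3 were higher in both batches and 6 lower in both. The shares over all genes tested were 24.8% and 26%, and the list's median was −0.19. Htr2a, the main cortical target of both drugs, stood at 16.9 and 26.8 CPM with clozapine and 14.1 and 29.0 with risperidone, which differ by less than the batches. Its fitted difference was 0.06 (SE 0.261). Htr2c stood at 17.0 and 21.0 against 29.4 and 25.5 CPM, with vehicle at 18.2 and 34.5 (−0.55, SE 0.294). Htr1f, which encodes a receptor coupled to inhibition of adenylyl cyclase, was the list's one gene with an unadjusted p under 0.05. It stood at 9.42 and 7.77 against 3.53 and 4.31 CPM, and its groups did not overlap (1.11, SE 0.407, unadjusted p 0.0187, edgeR adjusted p 0.617).
Of 16 muscarinic, adrenergic and histamine receptor genes 15 were tested, 9 were lower with clozapine in both batches and 1 higher, where 26% of all genes tested were lower in both. The median was −0.39 (−0.22 and −0.56), and 0 had an unadjusted p under 0.05. Chrm1, the most studied cortical muscarinic receptor, stood at 121 and 149 CPM with clozapine and 100 and 228 with risperidone (−0.17, SE 0.267), and its direction differed between batches. Chrm3 stood at 42.0 and 52.6 against 59.7 and 58.8 CPM, and Chrm4 at 9.91 and 6.25 against 12.2 and 13.5 CPM. In both genes the risperidone libraries were the higher ones, and vehicle spanned 35.3 to 67.2 and 7.80 to 18.4 CPM. Adra1b stood at 7.26 and 8.41 against 9.45 and 15.4 CPM, Hrh1 at 11.7 and 12.6 against 14.6 and 19.6 CPM, and Hrh2 at 13.8 and 14.4 against 25.7 and 15.9 CPM. For these 3 genes vehicle stood at 6.61 and 7.64, 11.4 and 16.1, and 12.7 and 11.4 CPM. Adra1a was the member higher with clozapine in both batches, at 30.1 and 29.9 against 21.2 and 25.4 CPM.

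Signalling and synaptic lists had medians of either sign, and 0 of their members were called. The 23 dopamine and cAMP signalling genes had a median of 0.21 (0.53 and −0.09). Of these, 10 were higher and 2 lower in both batches (24.8% and 26% of all genes tested). Among genes with a mean of at least 20 CPM, 37.7% were higher in both, and their median was 0.14 (0.3 and −0.02). The list was thus near the more abundant genes as a whole. The 15 ionotropic glutamate receptor subunits had a median of −0.08, the 14 GABA receptor genes −0.20, the 24 voltage-gated channels −0.11, the 22 presynaptic release genes 0.29 (0.40 and −0.02), the 22 postsynaptic scaffold genes 0.27 (0.63 and −0.15) and the 25 activity-regulated genes −0.03. Homer2, a scaffold linking metabotropic glutamate receptors to calcium stores, was higher with clozapine by 0.86 (SE 0.251), and by 1.07 and 0.68 within the batches. Gabra5, an extrasynaptic GABA-A receptor subunit, stood at 30.6 and 50.6 against 20.0 and 26.0 CPM (0.79, SE 0.243). In both genes the clozapine libraries lay above both risperidone libraries. Gabra5 had the largest difference of its list and went against most of it. Of the 14 GABA receptor genes, 7 were lower and 3 higher with clozapine in both batches, against 26% and 24.8% of all genes. Sterol and fatty acid genes, which antipsychotics are known to affect in cultured cells, had a median of −0.02. Of these 25 genes, 9 were lower and 4 higher in both batches, against 26% and 24.8% of all genes tested. Srebf1, a master regulator of lipid synthesis, stood at 27.4 and 21.5 against 31.5 and 43.3 CPM, and its groups did not overlap.

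Neuropeptide genes were lower with clozapine in both batches for 13 of 20 members and higher in both for 0. Over all genes tested the shares were 26% and 24.8%. The list's median was −0.44 (−0.09 and −0.61), and 0 members had an unadjusted p under 0.05. Adcyap1, which encodes PACAP, stood at 15.3 and 15.9 CPM with clozapine and 20.2 and 29.4 with risperidone. Crh, corticotropin-releasing hormone, stood at 0.687 and 3.53 against 4.03 and 3.95 CPM. Pdyn and Tac1, the precursors of dynorphin and substance P, read 11.4 and 6.17 against 12.1 and 21.9 CPM, and 12.9 and 9.93 against 13.4 and 29.3 CPM. Pdyn and Tac1 thus differed mainly in batch 2. The 18 striatal projection neuron markers, which include Drd1, Drd2, Pdyn and Tac1, had a median of 0.09 in batch 1 and −1.01 in batch 2. Of the 18, 8 were lower in both and 0 higher in both, against 26% and 24.8% of all genes tested. The summed level of the 18 was 1180 and 1020 CPM with clozapine and 888 and 1780 with risperidone. The part of striatal tissue in the batch 2 values was not tested.

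**Figure D5:**
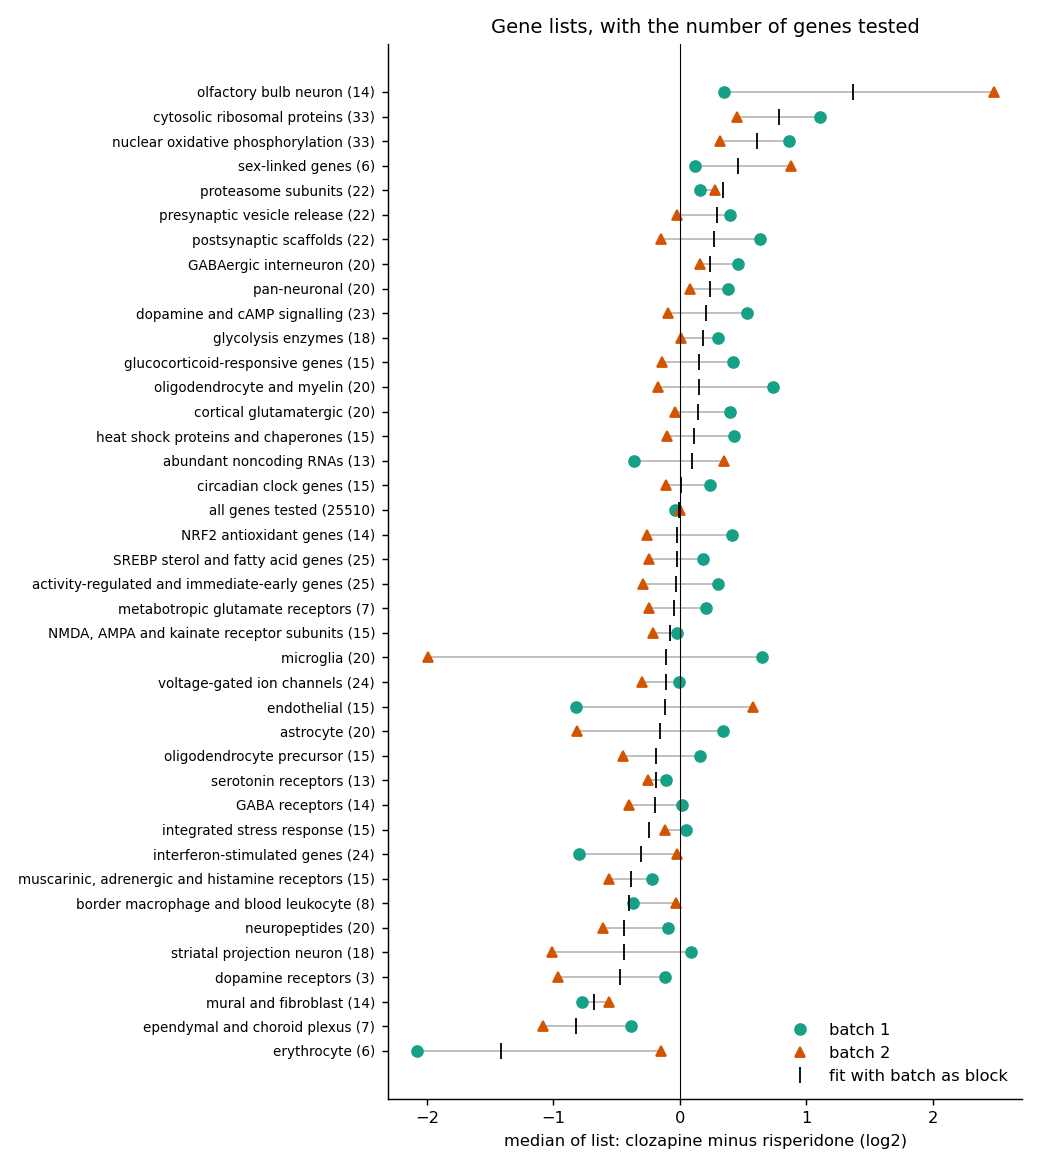
Median difference between clozapine and risperidone neurons (log2, x axis) of each gene list, with the number of genes tested in parentheses, in batch 1, in batch 2 and in the fit across both. Ribosomal protein and oxidative phosphorylation genes are to the right of 0 in both batches, mural and fibroblast genes are to the left in both, and the microglial list is at 0.65 in batch 1 and −1.99 in batch 2.

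Vessel markers did not go one way. The 15 endothelial markers had a median of −0.12 (−0.82 and 0.58), with 1 higher and 1 lower in both batches. Of 14 mural and fibroblast markers tested, 8 were lower in both batches and 2 higher in both, against 26% and 24.8% of all genes. At an unadjusted p under 0.05 there were 4, all lower (3.68% of all genes). The list's median was −0.68 (−0.77 and −0.56). Col1a1, a collagen of fibroblasts, stood at 5.99 and 4.81 CPM with clozapine, 12.3 and 11.0 with risperidone and 13.3 and 29.7 with vehicle (−1.11, SE 0.391). Col1a2 stood at 2.65 and 3.45 against 5.54 and 8.97 CPM. For both collagens the clozapine libraries were below the other 4. Haemoglobin and other erythrocyte genes had a median of −1.41 (−2.08 and −0.15), which was 0.01 without the risperidone library of batch 1, and Hbb-bt stood at 14.9 and 6.49 against 86.3 and 7.45 CPM, where the risperidone library of batch 1 was the high one. Summed microglial markers stood at 483 and 127 CPM with clozapine, 280 and 452 with risperidone and 179 and 1490 with vehicle. Their order thus turned between the batches. Summed astrocyte markers also turned, at 7280 and 5100 CPM with clozapine, 5300 and 9560 with risperidone and 4410 and 9120 with vehicle. The part of astrocyte RNA in the result was not tested.

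In the fit of the 4 drug libraries alone, the 49 lower called genes included Edn1, C3ar1, Il1a, Ccl3 and Tnf, which were chosen here after their values were seen. Il1a, the cytokine interleukin-1 alpha, stood at 10.7 and 2.80 CPM with clozapine, 12.1 and 54.9 with risperidone and 5.95 and 244 with vehicle. The chemokine gene Ccl3 stood at 11.8 and 1.20 against 7.18 and 55.1 CPM, with vehicle at 3.44 and 228, and was the higher one with clozapine in batch 1. Tnf stood at 4.71 and 0.801 against 5.67 and 28.2 CPM, and C3ar1, the complement C3a receptor, at 10.0 and 2.40 against 13.2 and 46.5 CPM. Edn1, the vasoconstrictor peptide endothelin-1, stood at 1.57 and 0.801 CPM with clozapine, 4.16 and 36.8 with risperidone and 2.25 and 204 with vehicle. The vehicle and risperidone libraries of batch 2 were high in all 5 genes, and the clozapine library of batch 2 was low. The part of microglial RNA in these values was not tested. Oasl1, an interferon-induced gene, was at 0.491 and 0.240 CPM with clozapine, 4.28 and 7.00 with risperidone and 1.19 and 26.8 with vehicle (−4.03, SE 1.01). It was lower in both batches, while its list had a median of −0.31 (−0.80 and −0.02). The nuclear noncoding RNA Neat1, a scaffold of paraspeckles, stood at 165 and 64.5 against 197 and 212 CPM (−1.05, SE 0.353).

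Whether the difference between the drugs was larger in neurons than in the other fractions was tested gene by gene with the pool as a block. No gene passed against microglia (0 of 37310, 0%, and 719 or 1.93% at an unadjusted p under 0.05) or against astrocytes (0, 0%, and 817 or 2.19%), by edgeR. Mlxipl was among the genes with the smallest p in the first of these. In microglia it stood at 50.8 and 47.8 CPM with clozapine and 52.6 and 49.5 with risperidone, so the fraction in which its level was highest showed nearly equal values. Its neuron minus microglia difference was −2.37 (unadjusted p 0.000572). Themis2, a signalling adaptor of immune cells, stood at 0.294 and 0 CPM in clozapine neurons and 4.28 and 2.33 in risperidone neurons, and at 32.1 and 37.6 against 23.0 and 25.1 CPM in microglia. Cebpd, a transcription factor of acute responses, stood at 1.57 and 0.721 against 4.03 and 2.51 CPM in neurons and at 15.4 and 19.1 against 2.71 and 6.62 CPM in astrocytes. The drugs thus stood in opposite order in neurons and astrocytes for Cebpd, and the difference between these fractions was −3.45 (unadjusted p 0.000324).

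Set beside vehicle, the named genes show which drug lay away from it. With clozapine minus vehicle and risperidone minus vehicle in that order, the values were 1.16 and −1.47 for Rny3, 0.41 and −1.02 for Usmg5, 0.44 and −0.69 for Rpl19, and 0.72 and −1.47 for Calb2. For Mlxipl they were −2.08 and 0.25, for Ikbke −2.70 and −0.29, and for Col1a1 −1.95 and −0.84. These pairs share the vehicle libraries. In each of the first 4 genes vehicle lay between the drugs in the fit, and Mlxipl and Ikbke were nearer to vehicle with risperidone. With the same test, 1 of 25510 genes was called for clozapine against vehicle (0.00392%) and 1 for risperidone against vehicle (0.00392%). In both it was the predicted gene Gm36264, which read 1050 and 219 CPM with vehicle, 30.4 and 3.36 with clozapine and 3.53 and 4.04 with risperidone. The order of the drugs for Gm36264 differed between the batches.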

How the data were processed

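Each library has a deposited table of read counts by gene, which the authors made with featureCounts 2.0.8 over exons with overlapping features allowed and no strand option on GRCm39, per the file headers. The sources used here do not name the aligner. Symbols came from GENCODE vM21 by identifier (52029 of 56953), and coordinates from the file headers. The 6 neuron libraries were filtered with filterByExpr, scaled by TMM and fitted in R 4.3.3 with edgeR 4.0.16 (treatment plus batch, quasi-likelihood test, Benjamini-Hochberg over all genes, called under 0.05). SE is the absolute difference divided by the square root of F. Values within a batch are log2 CPM differences with a prior count of 2. Interactions used all 18 libraries with the pool as a block. The fits were tested on simulated data. Members and lists were chosen with earlier results of these data known.

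Named were the 10 genes per direction with the smallest p that went the same way in both batches, without unnamed, predicted or pseudogenes, the receptor lists, up to 4 members of other lists by p, and up to 5 genes per direction of each interaction. Olfactory bulb genes, short genes by length, the genes of at least 20 CPM, the ribosomal exceptions and the inflammatory genes of the 4-library fit were chosen after values were seen. The labels call the replicate number a batch, so it was used as the block. Deviations of the batches correlated over 17345 genes by 0.2 (vehicle and clozapine), 0.55 (vehicle and risperidone) and 0.29 (clozapine and risperidone). Alternatives were no block, other sets of libraries, DESeq2 1.42.0, RLE scaling, other filters and thresholds, and each library left out. A few list members are not reported here by name.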

Additional observations from a re-analysis of the deposited data

How the results depend on the processing

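Without the replicate block 0 genes were called, as with it. The count of called genes, 0 in the fit reported, became 93 with the clozapine and risperidone libraries only (86 the same way in both batches), 39 with all 18 libraries in 1 fit (39 the same way), 18 with DESeq2 (18) and 118 without a low-count filter (113). Of the 39, 18 and 118 genes, 18, 11 and 82 were among the 93. It stayed at 0 with RLE scaling, with a mean of at least 1 CPM, at an adjusted p under 0.10 and with a log2 difference of at least 1. With 1 library left out it lay between 0 and 404. It was 0 without the batch 1 risperidone library, 404 without the batch 1 clozapine library, 167 and 251 without the batch 2 clozapine and risperidone libraries, and 94 and 43 without the batch 1 and batch 2 vehicle libraries. The count the same way in both batches was 85 and 38 in the latter 2 and cannot be formed without a clozapine or risperidone library. A lone library is assumed to vary like the others. The cause of these differences was not tested.

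Against microglia and astrocytes the interactions called 10 and 4 genes without a filter, 0 to 12 and 0 to 39 with a library left out, the highest without the batch 2 risperidone library, and 0 otherwise. The count of genes at 2-fold or more the same way in both batches was 1287 in the values reported and 819 at a mean of at least 1 CPM. Of 57 genes with a tested difference, 54 kept their direction in every setting. Of the 57, 20 were named for a small p and the same direction in both batches, so their direction could hardly turn. Settings that changed only the threshold could not turn any gene. With a library left out Htr2a ranged from −0.193 to 0.316, Drd2 from −1.44 to 0.396 and Chrm1 from −0.536 to 0.168. The ribosomal protein median ranged from 0.47 to 1.18 and the oxidative phosphorylation median from 0.3 to 0.8 over 12 settings. With n = 2 the design gives few degrees of freedom, and genes under a few CPM rest on few counts.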
